A study of Mus musculus with 16 samples.

Results

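The 54 genes described here encode the machinery that copies DNA in S phase, from the origin recognition complex through the MCM helicase, the polymerases and the sliding clamp to the enzymes that finish the lagging strand, with the cyclins, kinases and E2F factors that switch it on. They were taken from a list of symbols and matched to the symbol in each gene name of the deposited tables. All 54 were found among 53342 genes, and all 54 were kept by the filter on low counts that left 16482 genes. The lowest count of any of them in any library was 24, for Orc1.

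RNA was sequenced from LSK cells, the bone marrow fraction without lineage markers and with Sca-1 and c-Kit on its surface, in which hematopoietic stem cells and multipotent progenitors are found. All mice were on the C57BL/6J background and 8 to 14 weeks old. The groups were wild type with PBS (n = 5), Gata2 +9.5(Ets)-/- with PBS (n = 5), wild type with 5-fluorouracil (5-FU, n = 3) and Gata2 +9.5(Ets)-/- with 5-FU (n = 3), with 5-FU given at 250 mg/kg and marrow taken 10 days after injection. Gata2 +9.5(Ets)-/- mice, called the mutant below, carry a C-to-T change in the Ets motif of an enhancer inside the Gata2 gene. No deletion, Cre driver or transgene is named in the labels. The labels do not say that replicates came from separate mice, so p-values measure the spread between these libraries, which may be technical.

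Replication starts in G1 phase, when the origin recognition complex, Cdc6 and Cdt1 load MCM2-7 rings onto DNA. In S phase the kinase pair Cdc7-Dbf4 and cyclin E with its kinase convert these rings into active helicases with Cdc45 and GINS, and polymerases alpha, delta and epsilon copy the strands. Many of the genes are transcribed at the G1-S boundary under E2F factors. Most long-term stem cells in adult marrow are quiescent, and 5-FU, which blocks thymidylate synthesis and kills dividing cells, is used to make the surviving stem and progenitor cells divide and rebuild the blood.

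Each library held 19.37 to 28.88 times 1e6 expected counts, and each member was measured from at least 24 counts. The gene whose enhancer is changed, Gata2, lay between 54.1 and 113 CPM (counts per 1e6 counts of the library, scaled with TMM factors) in wild-type PBS libraries and between 48.4 and 167 CPM in mutant PBS libraries. After 5-FU it lay between 192 and 224 CPM in wild type and between 169 and 208 CPM in the mutant. These levels do not separate the genotypes and do not check the labels, since the changed base lies in an intron. All 10 markers of stem and progenitor cells tested, such as Kit, Ly6a, Cd34 and Flt3, averaged over 1 CPM in every group. A level over 1 CPM does not identify the cells, since all 8 plasma cell markers tested also reached it in both PBS groups. With 5-FU 2 of the 10 rose and 1 fell in wild type, and 1 rose and 2 fell in the mutant. Their summed level in wild type was at least 2727 CPM after PBS and at most 2185 CPM after 5-FU. In the mutant it was at least 2247 CPM after PBS and at most 1702 CPM after 5-FU.

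Libraries differed in RNA of other blood cells. Immunoglobulin genes held 6.72 to 47.6% of the counts in wild-type PBS libraries and 3.83 to 53.7% in mutant PBS libraries. They held 0.0404 to 0.344% in wild-type 5-FU libraries and 5.90 to 28.3% in mutant 5-FU libraries. Summed over 8 plasma cell markers (Jchain, Sdc1, Xbp1, Prdm1, Mzb1, Tnfrsf17, Irf4 and Derl3), the level was 3129 to 64787 CPM, 1557 to 74104 CPM, 137 to 376 CPM and 2268 to 19310 CPM in the same order. Of these 8 markers, 8 fell with 5-FU in wild type and 0 passed the test in the mutant. Among B cell markers 7 of 8 fell with 5-FU in wild type, and Pax5 was at 0 in all wild-type 5-FU libraries. Of the T and NK cell markers 6 of 7 fell there, with Cd3e, Gzma and Cd2 at 0 in all 3 libraries. Monocyte markers fell there for 4 of 7, erythroid markers for 5 of 7 and granulocyte markers for 4 of 7. In the mutant 1 of 7 granulocyte markers fell, and 0 of the B cell, T and NK cell, monocyte and erythroid markers passed. The summed granulocyte level went from 4335 to 20231 CPM after PBS to 226 to 3110 CPM after 5-FU in wild type. In the mutant it went from 3310 to 19216 CPM to 187 to 383 CPM. Both PBS libraries numbered 3 had the highest immunoglobulin share of their genotype, 47.6 and 53.7%, and the lowest mean level of the replication genes, 5.34 and 5.29 on the log2 CPM scale, against 5.84 to 6.19 in the other 8 PBS libraries.

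In wild-type LSK cells, 9 of the 54 replication genes rose 10 days after 5-FU and 0 fell. The 9 were Orc1 of the origin recognition complex, the helicase-activating factor Mcm10, the kinase activator Dbf4, the repressor E2f8, the polymerase genes Pola1, Prim2 and Pole, the single-strand binding subunit Rpa1 and the DNA ligase Lig1. Their rises ran from 0.61 (Prim2) to 1.78 (Orc1) on the log2 scale. Over all genes tested 5.55% rose and 9.31% fell, by edgeR's quasi-likelihood test with Benjamini-Hochberg adjustment over all 16482 genes and a threshold of 0.05, which is also the source of the adjusted p-values below. The median log2 fold change of the 54 genes was 0.61, against -0.11 over all genes, and 45 of them had a value above 0. Over all genes tested 45.4% had a value above 0. The number of the 54 above 0 was 45 with RLE scaling, 40 with upper quartile scaling and 54 on the TPM scale. The median over all genes was -0.10, -0.24 and 1.01 in these fits, so on the TPM scale all genes shifted upward. Before adjustment 26 of the 54 had a p under 0.05, against 6089 of all 16482 genes.

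The replication genes also separated the wild-type groups library by library. For 34 of 54 genes (63.0%) every 5-FU library lay above every PBS library, and for 0 every 5-FU library lay below. Over all genes tested these shares were 16% and 15.8%. The 20 genes without such a separation included Pcna, Gmnn, 3 of the 4 GINS genes, Rfc2, Rfc3, Rfc4, Rpa3 and Tipin.

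**Figure D1:**
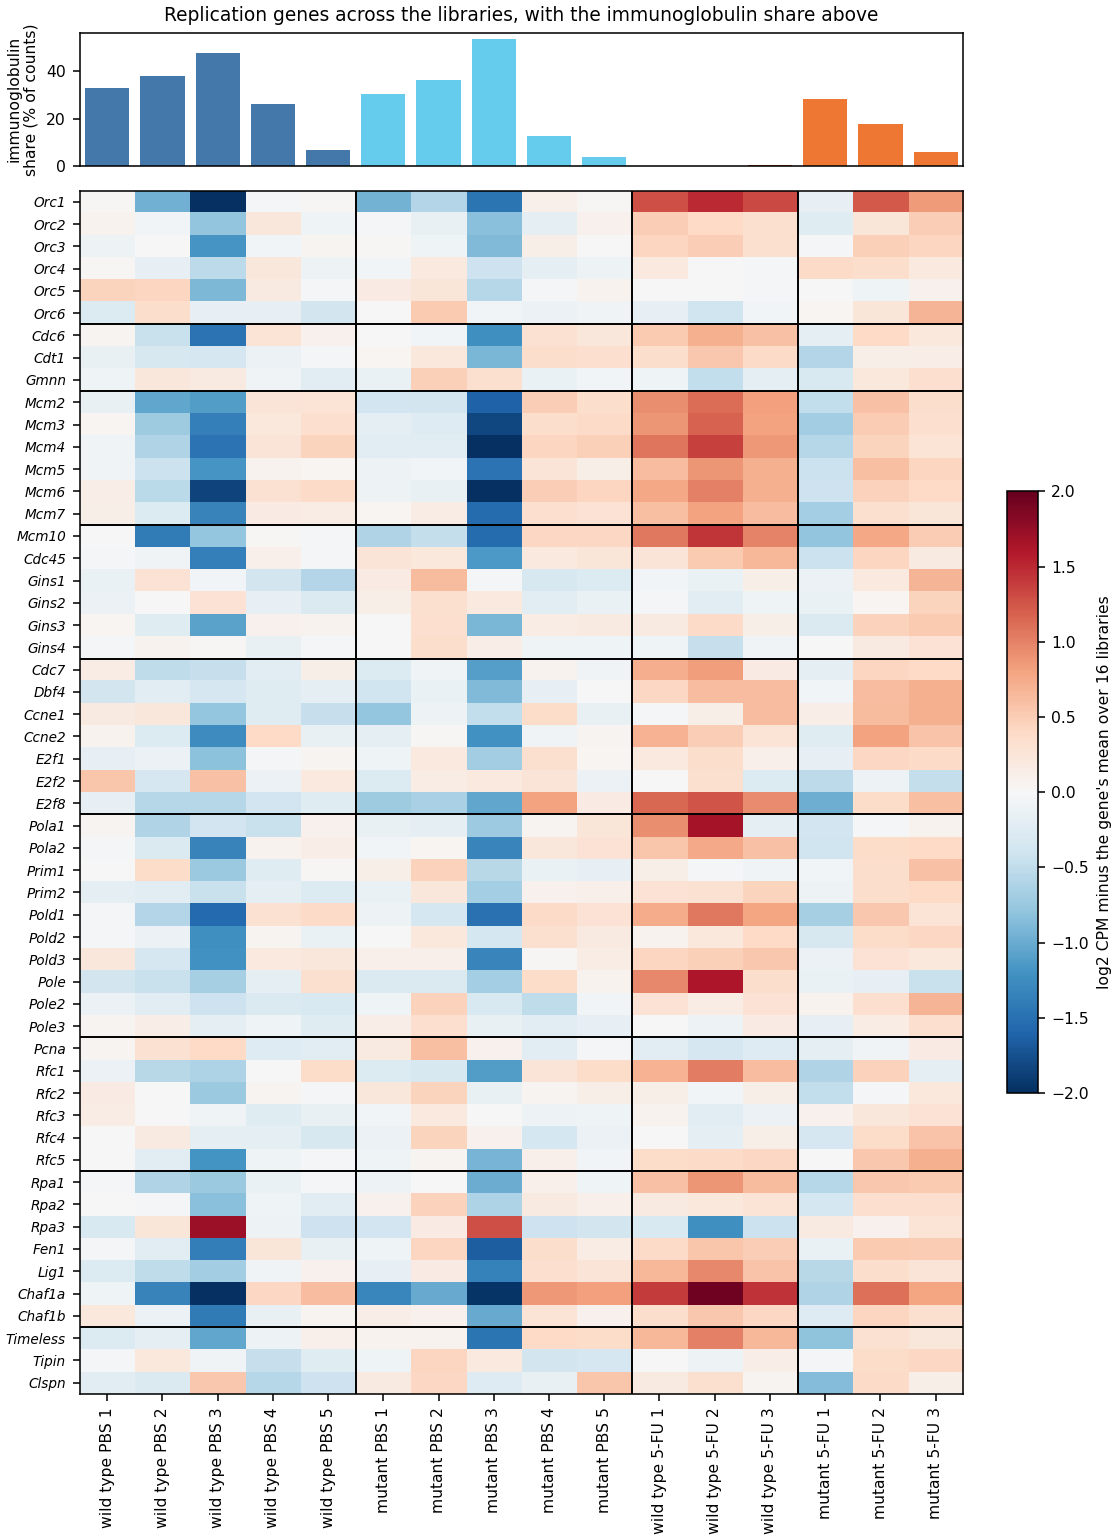
The 54 replication genes (rows, ordered by role and divided by lines) in the 16 libraries (columns), coloured by log2 CPM minus the gene's mean over all libraries, with the immunoglobulin share of each library's counts in percent as bars above. The MCM genes are above their mean in all 3 wild-type 5-FU libraries and lowest in the PBS libraries numbered 3, whose immunoglobulin shares were 47.6 and 53.7%.

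Not every library carried these calls equally. Leaving out wild-type 5-FU replicate 2 left 0 of 54 called, against 0.85% of all genes called higher. The median of the 54 was then 0.58, and 14 of them had an unadjusted p under 0.05. Without wild-type 5-FU replicate 1 there were 2 (Dbf4 and Pole), against 1.38% of all genes called higher. Without replicate 3 of that group there were 4 (E2f8, Orc1, Pola1 and Pole), against 3.15%. Without wild-type PBS replicate 2 or replicate 3 there were 5 in each case (Dbf4, E2f8, Orc1, Pola1 and Pole), against 2.51% and 3.41%. With all libraries 5.55% of all genes were called higher. Without both PBS libraries numbered 3, an alternative added after seeing the data, 22 were called, against 9.18% of all genes called higher. With each library's immunoglobulin share as a covariate 0 were called, against 0.746% of all genes called higher, the median was 0.08, and 38 of 54 were above 0; every wild-type 5-FU library had a lower share than every PBS library. The sample codes in the labels differ in their leading digits, whose meaning the labels do not give. With these digits as a factor 0 were called, against 0.601% of all genes called higher, with a median of 0.43 and 47 of 54 above 0. With the leading zero of the code as a covariate 1 was called (Pole), against 1.37% of all genes, with a median of 0.46.

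In bulk RNA from sorted cells, fewer cells of a type and less RNA per cell cannot be told apart. The part of the immunoglobulin-rich RNA and of the sample codes in the rises was not tested beyond these fits.

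**Figure D2:**
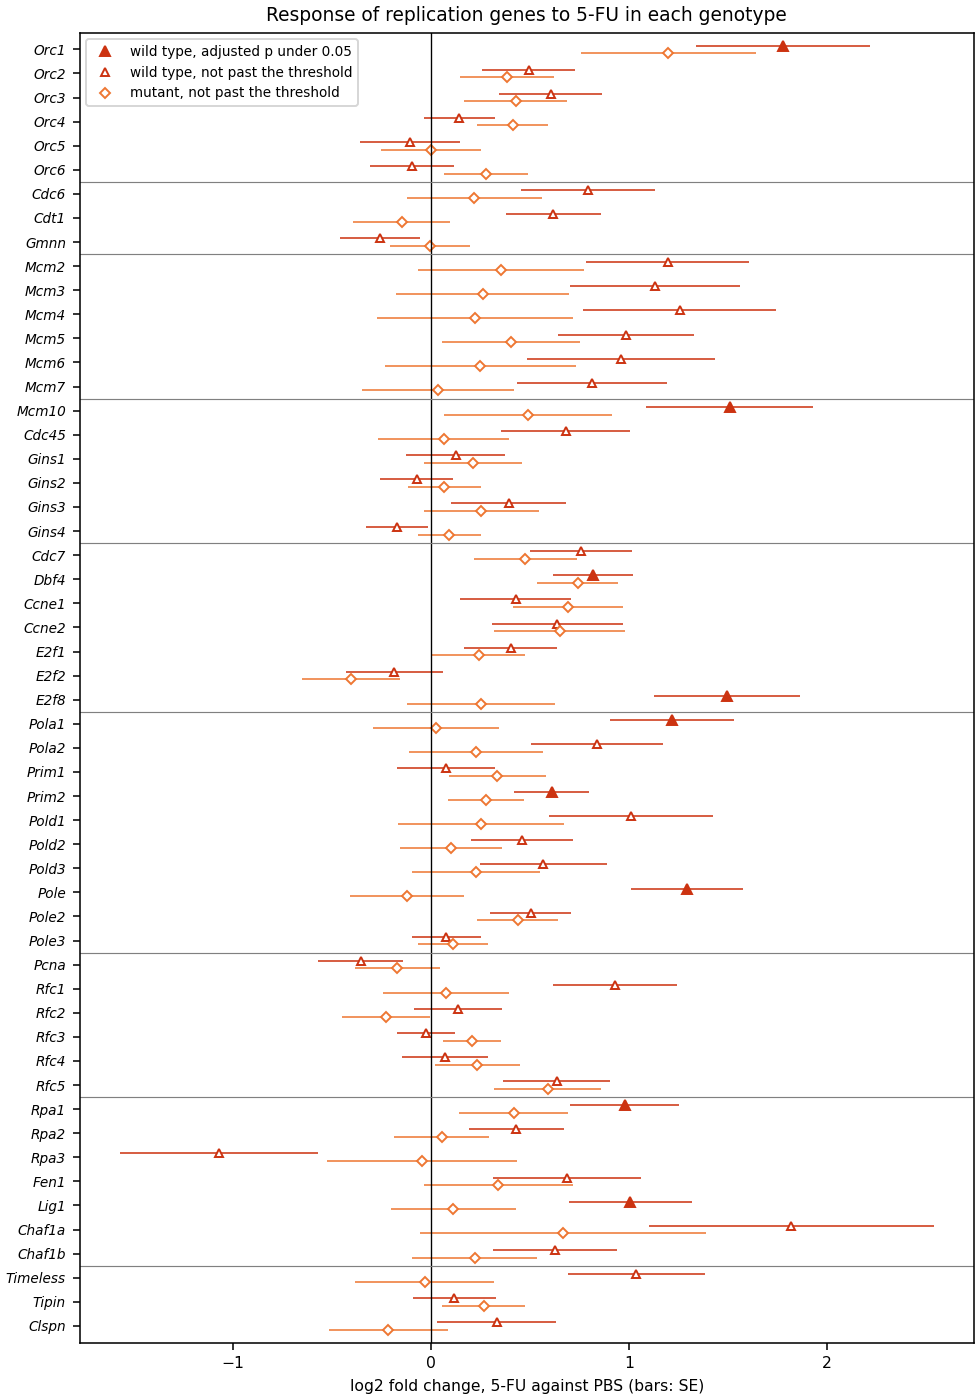
Log2 fold change of each replication gene after 5-FU against PBS (horizontal axis, bars are standard errors) in wild type (triangles) and in the mutant (diamonds), with filled symbols for adjusted p under 0.05 and lines between roles. The 9 filled triangles lie between 0.61 and 1.78, and no diamond is filled.

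The origin recognition complex marks the sites where replication can start. Orc1, its cell-cycle regulated subunit (GRCm38 chr4:108579423-108614833), was measured at 10.3, 5.2, 2.18, 9.99 and 10.3 CPM in wild-type PBS replicates 1 to 5 and at 24.8, 28.5 and 25.5 CPM in 5-FU replicates 1 to 3. The groups did not overlap, and PBS replicate 3 was the lowest library. The log2 fold change was 1.78 ± 0.44 (SE; adjusted p = 0.0164). In the mutant Orc1 stood at 5.3, 6.81, 3.7, 11 and 10.3 CPM after PBS and at 9.13, 23.9 and 18.4 CPM after 5-FU, with replicate 1 of the 5-FU group inside the PBS range, and the log2 fold change was 1.20 ± 0.44 (SE; adjusted p = 0.221). The other 5 subunits did not pass the test in wild type. Orc3, next by p, had a log2 fold change of 0.61 ± 0.26 (SE; adjusted p = 0.107), while Orc5 and Orc6 were at -0.11 and -0.10. Exons of Orc1 overlap those of Gm12743 over 10.8% of their length, and its expected count was whole in 1 of 16 libraries, so part of its reads was shared out by the authors' counting.

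Cdc6 and Cdt1 load the MCM rings, and Gmnn encodes geminin, the inhibitor of Cdt1. Cdc6 (chr11:98907801-98923940) was at 61.5, 43.6, 21.2, 71.4 and 62.5 CPM in wild-type PBS libraries and at 85.1, 97.4 and 88.6 CPM after 5-FU. All 3 libraries after 5-FU lay above all 5 after PBS, but the log2 fold change of 0.79 ± 0.34 (SE; adjusted p = 0.105) did not pass the threshold. Mutant libraries gave 59.2, 57.3, 25.4, 73 and 69.1 CPM after PBS and 52.3, 78 and 68.2 CPM after 5-FU, which overlap. Cdt1 had a log2 fold change of 0.62 ± 0.24 (SE; adjusted p = 0.0836) in wild type and -0.15 ± 0.24 (SE; adjusted p = 0.871) in the mutant. Gmnn was at -0.25 ± 0.20 (SE; adjusted p = 0.360) in wild type, the opposite sign from its loading partners, and did not pass the test. Thus 0 of 3 licensing genes were called in either genotype, and the groups did not overlap for Cdc6 and Cdt1 in wild type.

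The 6 subunits of the MCM ring, the motor of the replicative helicase, had like values in wild type, none past the threshold. Their log2 fold changes in wild type ran from 0.81 (Mcm7) to 1.26 (Mcm4), with a median of 1.06. For all 6 every 5-FU library lay above every PBS library (16% of all genes tested), and 5 of 6 had an unadjusted p under 0.05 (6089 of all 16482 genes). After adjustment over all genes 0 passed. The median stayed positive under RLE scaling (1.07), upper quartile scaling (0.95) and without immunoglobulin genes (1.07). With the immunoglobulin share as a covariate it was -0.04 and 2 of 6 were above 0, so the direction of the ring in wild type depended on that covariate.

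Mcm2 (chr6:88883474-88898780) was at 215, 115, 109.8, 284 and 288 CPM in wild-type PBS replicates and at 452, 517 and 422 CPM after 5-FU. Its log2 fold change was 1.20 ± 0.41 (SE; adjusted p = 0.0591). In the mutant it was at 183, 184, 77.8, 334 and 304 CPM after PBS and at 169, 358 and 303 CPM after 5-FU. The lowest wild-type 5-FU value was above every other library of the study for Mcm2, and in the mutant 5-FU replicate 1 lay below 4 of the 5 PBS libraries.

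Mcm5 (chr8:75109569-75128439) followed the same order. Wild-type PBS libraries held 275, 214, 128, 303 and 295 CPM and wild-type 5-FU libraries 443, 532 and 471 CPM, a log2 fold change of 0.99 ± 0.34 (SE; adjusted p = 0.0608). Mutant PBS libraries held 268, 279, 104, 346 and 314 CPM and mutant 5-FU libraries 215, 438 and 388 CPM, a log2 fold change of 0.40 ± 0.35 (SE; adjusted p = 0.716). Summed over Mcm2 to Mcm7, the level was 1777, 1186, 655, 2021 and 2099 CPM in wild-type PBS replicates 1 to 5 and 3002, 3560 and 2901 CPM after 5-FU. The mutant sums were 1589, 1603, 508, 2301 and 2210 CPM after PBS and 1209, 2437 and 2213 CPM after 5-FU. The mutant groups therefore overlapped, and the wild-type groups did not.

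**Figure D3:**
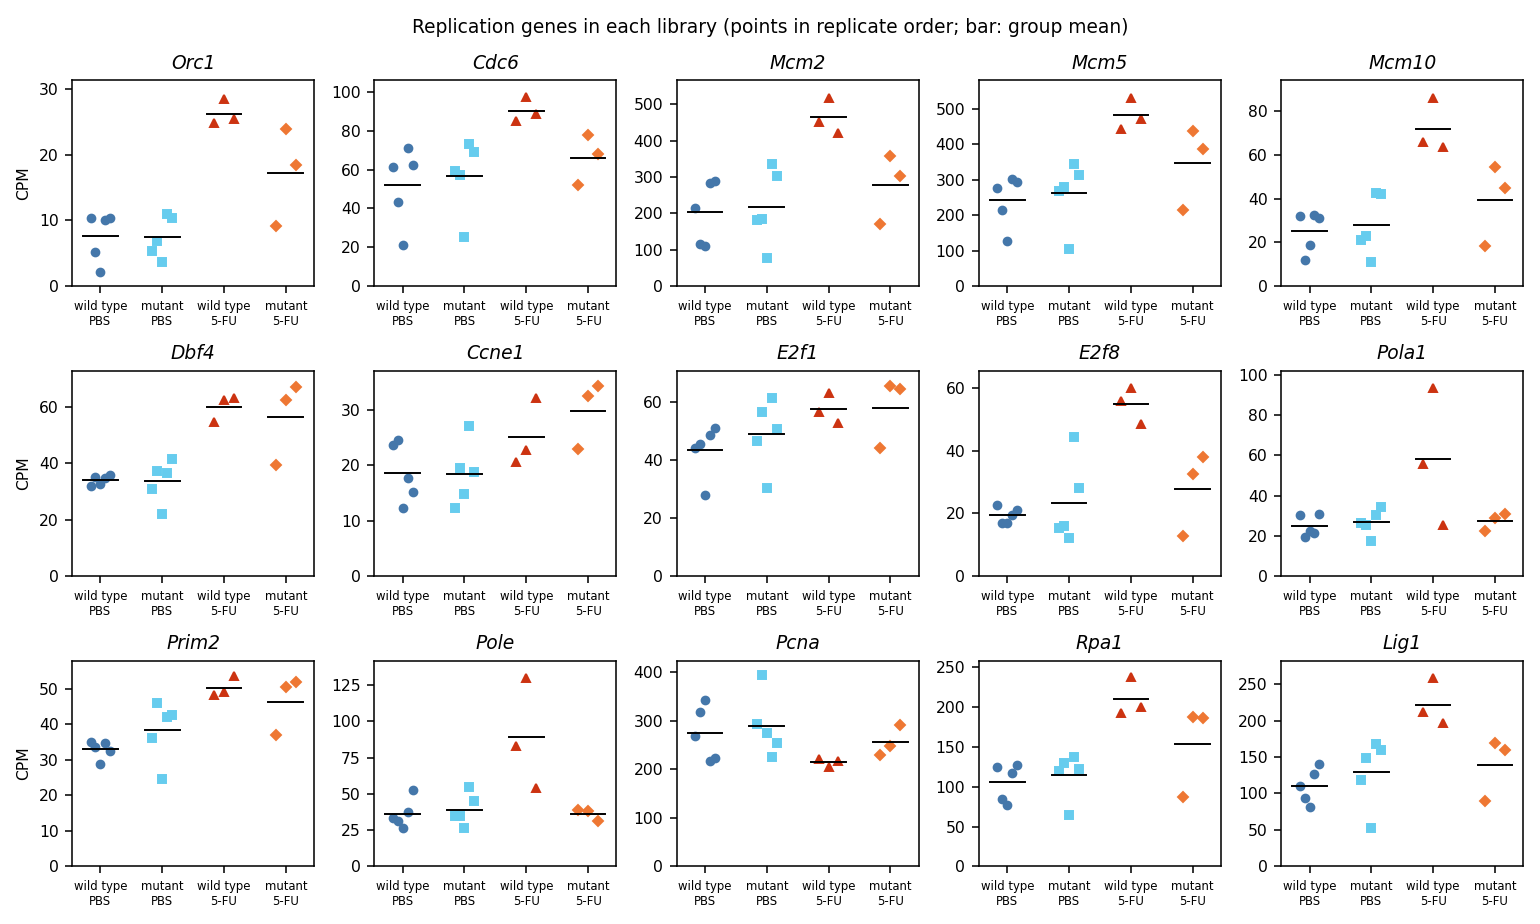
Level in CPM (vertical axis, from 0) of Mcm2, Mcm5, Pcna, Cdc6, Ccne1 and E2f1 and of the 9 called genes in each library, by group, with points in replicate order and a bar at the group mean. Wild-type 5-FU libraries lie above all wild-type PBS libraries for every gene shown except Ccne1, Pola1 and Pcna, where they overlap.

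Mcm10 and Cdc45 with the 4 GINS subunits turn the loaded ring into a moving helicase. Mcm10 (chr2:4989714-5012791) was at 32, 12.1, 18.6, 32.4 and 30.9 CPM in wild-type PBS libraries and at 66.1, 86 and 63.6 CPM after 5-FU, without overlap. Its log2 fold change was 1.51 ± 0.42 (SE; adjusted p = 0.0279). The mutant had 21, 22.8, 10.9, 42.5 and 42.3 CPM after PBS and 18.4, 54.4 and 45.1 CPM after 5-FU, a log2 fold change of 0.49 ± 0.43 (SE; adjusted p = 0.720), with 5-FU replicate 1 below 4 of the 5 PBS libraries. Cdc45 had 0.68 ± 0.33 (SE; adjusted p = 0.140) in wild type. The GINS genes had smaller values. Gins1, Gins2 and Gins4 were at 0.13, -0.07 and -0.17, and Gins3 was at 0.39, none past the threshold. So 1 of these 6 genes rose in wild type and 0 passed in the mutant.

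Of the 7 S-phase kinases, cyclins and E2F factors, 2 rose in wild type. Dbf4 (chr5:8396973-8422716), the regulatory subunit that activates the kinase Cdc7, was at 31.8, 35.2, 32.6, 34.8 and 35.8 CPM after PBS and at 54.7, 62.4 and 63 CPM after 5-FU. Its log2 fold change was 0.82 ± 0.20 (SE; adjusted p = 0.0167). The mutant values for Dbf4 were 30.9, 37.3, 22.1, 36.4 and 41.3 CPM after PBS and 39.2, 62.5 and 67 CPM after 5-FU, with a log2 fold change of 0.74 ± 0.20 (SE; adjusted p = 0.0762), the smallest adjusted p of any member in the mutant. The response in the mutant minus that in wild type was -0.08 ± 0.29 (SE; adjusted p = 0.930). Without mutant 5-FU replicate 1, Dbf4 passed the threshold in the mutant, as it did by DESeq2.

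E2f8 (chr7:48866429-48881596), an atypical E2F that represses E2F targets late in S phase, was at 22.6, 16.9, 17.1, 19.4 and 21.2 CPM in wild-type PBS libraries and at 56, 60.1 and 48.5 CPM after 5-FU. The log2 fold change was 1.50 ± 0.37 (SE; adjusted p = 0.0161). In the mutant it was at 15.5, 16.1, 12.3, 44.3 and 28.3 CPM after PBS and at 12.9, 32.5 and 38.1 CPM after 5-FU, a log2 fold change of 0.25 ± 0.37 (SE; adjusted p = 0.851). The mutant groups overlapped fully, with the highest value in PBS replicate 4. Exons of E2f8 overlap those of Gm2788 over 11.2% of their length, and its count was whole in 2 of 16 libraries.

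E2f1 (chr2:154559407-154569892), an activating E2F, was at 44.1, 45.4, 27.8, 48.7 and 51 CPM after PBS and at 56.5, 63 and 52.7 CPM after 5-FU in wild type. The groups did not overlap, with 51.0 and 52.7 CPM as their nearest libraries, and the log2 fold change of 0.40 ± 0.23 (SE; adjusted p = 0.213) did not pass. Mutant libraries had 46.4, 56.3, 30.5, 61.3 and 50.5 CPM and 44.1, 65.5 and 64.3 CPM, a log2 fold change of 0.24 ± 0.23 (SE; adjusted p = 0.760). Ccne1 (chr7:38097984-38107534), which encodes cyclin E1, was at 23.6, 24.5, 12.2, 17.7 and 15.1 CPM after PBS and at 20.5, 22.7 and 32.1 CPM after 5-FU in wild type, with overlap. The log2 fold change of Ccne1 was 0.43 ± 0.28 (SE; adjusted p = 0.265) in wild type and 0.69 ± 0.28 (SE; adjusted p = 0.279) in the mutant, neither past the threshold. Its mutant libraries held 12.2, 19.5, 14.8, 27 and 18.9 CPM after PBS and 22.9, 32.4 and 34.2 CPM after 5-FU. E2f2 was at -0.18 in wild type and -0.40 in the mutant.

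Polymerase alpha with primase starts each new strand, epsilon copies mainly the leading strand and delta the lagging strand. Of the 10 subunit genes, 3 rose in wild type and all 10 had a log2 fold change above 0. Pole (chr5:110286306-110337474), the catalytic subunit of polymerase epsilon, was at 33.1, 31.2, 26.8, 37.4 and 53 CPM after PBS and at 83, 129.9 and 54.2 CPM after 5-FU. The nearest libraries of the groups were at 53.0 and 54.2 CPM, and 5-FU replicate 2 was far above the others. The log2 fold change was 1.29 ± 0.28 (SE; adjusted p = 0.00868), the smallest adjusted p of the 54. In the mutant Pole was at 34.7, 34.6, 26.4, 54.8 and 44.9 CPM after PBS and at 38.7, 38 and 31.4 CPM after 5-FU, which overlap, with a log2 fold change of -0.12 ± 0.29 (SE; adjusted p = 0.915).

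Pola1 (chrX:93304767-93632155), the catalytic subunit of polymerase alpha, was at 30.5, 19.4, 22.6, 21.6 and 31.1 CPM after PBS and at 55.6, 93.4 and 25.6 CPM after 5-FU in wild type. Replicate 3 of the 5-FU group lay within the PBS range, while the other 2 lay above it, and the log2 fold change was 1.22 ± 0.31 (SE; adjusted p = 0.0197). That replicate shares the leading digits of its sample code with PBS replicates 4 and 5, and with those digits as a factor the value was -0.04. In the mutant Pola1 was at 26.4, 25.5, 17.7, 30.3 and 34.6 CPM after PBS and at 22.5, 29 and 30.8 CPM after 5-FU. Prim2 (chr1:33453810-33669795), the large primase subunit, ranged from 28.8 to 34.9 CPM after PBS and from 48.3 to 53.6 CPM after 5-FU in wild type, a log2 fold change of 0.61 ± 0.19 (SE; adjusted p = 0.0435). In the mutant it ranged from 24.6 to 46.0 CPM and from 36.9 to 51.8 CPM. The partner primase subunit Prim1 was at 0.08 ± 0.25 (SE; adjusted p = 0.840) in wild type, and the small epsilon subunit Pole3 at 0.08 ± 0.17 (SE; adjusted p = 0.761).

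The genes of the sliding clamp and its loader had values of both signs. Pcna (chr2:132249162-132253314), the clamp itself and a common marker of dividing cells, was at 268, 318, 343, 216 and 223 CPM in wild-type PBS libraries and at 220.5, 205 and 216 CPM after 5-FU. Its log2 fold change of -0.35 ± 0.21 (SE; adjusted p = 0.232) was below 0 on the CPM scale and did not pass the threshold. On the deposited TPM scale, log2(TPM + 1), it was 1.14, where the median of all genes moved from -0.11 to 1.01. Pcna counts were not whole in any of the 16 libraries, so its reads were shared with other genes by the authors' counting and its values are uncertain. In the mutant it was at 292, 393, 275, 225 and 254 CPM after PBS and at 229.7, 247 and 292 CPM after 5-FU. Of the 5 clamp loader genes, Rfc1, the largest subunit, had 0.93 ± 0.31 (SE; adjusted p = 0.0544) in wild type and Rfc5 0.63 ± 0.27 (SE; adjusted p = 0.105). Rfc2, Rfc3 and Rfc4 lay between -0.03 and 0.14, and 0 of the 6 genes passed the threshold.

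Among the genes for single-strand binding, lagging-strand joining and chromatin assembly, 2 of 7 rose in wild type. Rpa1 (chr11:75298166-75348324), the large subunit of replication protein A, was at 125, 85.1, 77.4, 118 and 127 CPM after PBS and at 193, 237 and 199.9 CPM after 5-FU. Its log2 fold change was 0.98 ± 0.27 (SE; adjusted p = 0.0287), and the groups did not overlap. Mutant libraries had 120.0, 130.0, 64.6, 138 and 122 CPM after PBS and 87.1, 187 and 186 CPM after 5-FU. Lig1 (chr7:13277283-13311433), which joins Okazaki fragments, was at 109.7, 93.1, 81.8, 127 and 141 CPM after PBS and at 211, 258 and 196 CPM after 5-FU, a log2 fold change of 1.01 ± 0.31 (SE; adjusted p = 0.0411). In the mutant Lig1 was at 118, 148, 52, 167 and 159.7 CPM after PBS and at 90, 169.6 and 159 CPM after 5-FU, a log2 fold change of 0.11 ± 0.32 (SE; adjusted p = 0.929).

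The 3 subunits of replication protein A differed in sign. Rpa2 was at 0.43 and Rpa3, the smallest subunit, at -1.07 ± 0.50 (SE; adjusted p = 0.131) in wild type. Chaf1a, the large subunit of the histone chaperone that follows the fork, had the highest log2 fold change of all 54 genes, 1.82 ± 0.72 (SE; adjusted p = 0.0881), with the widest error. Its exons overlap other genes over 52.5% of their length and its counts were not whole in any library. Fen1, the flap endonuclease, had a log2 fold change of 0.69 ± 0.37 (SE; adjusted p = 0.185), an overlap of 84.2% and whole counts in 4 of 16 libraries. In the fork protection complex, Timeless had 1.04 ± 0.34 (SE; adjusted p = 0.0524), just outside the threshold, while its partner Tipin was at 0.12 ± 0.21 (SE; adjusted p = 0.700) and the checkpoint mediator Clspn at 0.33 ± 0.30 (SE; adjusted p = 0.421).

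Across the threshold in wild type the values were continuous. Just inside were Lig1 and Prim2 with adjusted p of 0.0411 and 0.0435. Just outside were Timeless (0.0524), Rfc1 (0.0544), Cdc7 (0.0569), Mcm2 (0.0591) and Mcm5 (0.0608). All 9 called genes were also called by DESeq2, which called 19 of the 54, and by limma-voom with quality weights, which called 30. Over all genes these tests called 10.7% and 19.6% higher. On the TPM scale 46 were called, against 42.7% of all genes called higher.

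The start regions of these genes were searched for the E2F site, spelled TTTCCCGC, TTTCGCGC, TTTGCCGC or TTTGGCGC on either strand, because E2F factors are known to drive many of them. Of the 54 genes, 44 had an entry among RefSeq promoters (GRCm38.p6), each 250 bases before to 50 bases after the annotated start. The site was found in 17 of 44 (38.6%), against 704 of all 27025 genes with a promoter entry (2.60%). A gene was counted when any of its promoters held the site. Before the start alone it was found in 9 of 44 (20.5%), against 2.16% of all genes with a promoter entry. The CCAAT box (CCAAT) was in 56.8% against 41.1%, and the CHR element (TTTGAA) in 20.5% against 20.2%. Of the 7 called genes with an entry, 3 held the E2F site (42.9%), as did 14 of the 37 others (37.8%). A match is a description of letters in a window and does not show that a factor binds there.

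The following stretches carry the site in genes whose values are given in full or that belong to the MCM ring. Each is written 5′ to 3′ along the strand of the gene on GRCm38.p6, and capitals mark the E2F site, whose distance from the start is counted from the middle of the site.
Orc1, site 23 bases before the start, chr4:108579416-108579445, plus strand: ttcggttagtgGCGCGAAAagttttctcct
Pola1, site 134 bases before the start, chrX:93632275-93632304, minus strand: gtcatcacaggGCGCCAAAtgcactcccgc
Cdc6, site 134 bases before the start, chr11:98908002-98908031, plus strand: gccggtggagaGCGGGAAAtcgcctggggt
Mcm5, site 149 bases before the start, chr8:75109345-75109374, plus strand: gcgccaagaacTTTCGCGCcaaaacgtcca
Mcm5, site 145 bases before the start, chr8:75109349-75109378, plus strand: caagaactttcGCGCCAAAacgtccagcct
Mcm6, site 106 bases before the start, chr1:128359797-128359826, minus strand: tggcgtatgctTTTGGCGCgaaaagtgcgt
Mcm6, site 102 bases before the start, chr1:128359793-128359822, minus strand: gtatgcttttgGCGCGAAAagtgcgtgcgg
Mcm6, site 43 bases before the start, chr1:128359734-128359763, minus strand: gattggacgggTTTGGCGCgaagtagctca
Mcm7, site 161 bases before the start, chr5:138172030-138172059, minus strand: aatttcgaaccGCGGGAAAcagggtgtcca
In Mcm5 and in the upstream pair of Mcm6, 2 spellings of the site on opposite strands overlap. The GENCODE starts of Cdc6 and Mcm7 lie upstream of the stretches shown, and that of Orc1 lies within it, so annotated starts differ between the sources for these genes.

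In the mutant, by edgeR, 0 of 54 replication genes passed the threshold after 5-FU, against 2.2% of all genes called in either direction. An unadjusted p under 0.05 was found for 6 of 54 (Dbf4, Orc1, Ccne1, Orc4, Rfc5 and Pole2), against 2159 of all 16482 genes. DESeq2 called 1 (Dbf4), limma-voom with quality weights 4 (Ccne1, Dbf4, Orc1 and Rfc5) and limma-trend on TPM 0, against 5.38%, 9.38% and 0.977% of all genes. The median log2 fold change was 0.23, against -0.03 over all genes. Of the 54 genes 44 had a value above 0, against 47.5% of all genes. With the immunoglobulin share as a covariate the medians of the 54 genes were 0.084 in wild type and 0.088 in the mutant. For 1 gene, Orc4, every 5-FU library lay above every PBS library, against 5.05% of all genes. Mutant 5-FU replicate 1 had the lowest mean of the replication genes after 5-FU, 5.79 on the log2 CPM scale against 6.45 and 6.44 in the other 2, and an immunoglobulin share of 28.3% against 17.9 and 5.90%.

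The difference between the responses of the 2 genotypes was itself tested. By edgeR 0 of 54 genes passed for the interaction, against 0.589% of all genes. An unadjusted p under 0.05 was found for 5 of 54 (Pole, Pola1, E2f8, Cdt1 and Timeless), against 1788 of all 16482 genes. DESeq2 and limma-voom with quality weights called 1 each (Pole), against 3.53% and 4.47% of all genes, and limma-trend on TPM called 0, against 0.34%. The largest was Pole, whose response in the mutant minus that in wild type was -1.41 ± 0.41 (SE; adjusted p = 0.146) on the log2 scale. The median difference was -0.35 over the 54 genes and -0.81 over the MCM ring. With the immunoglobulin share as a covariate these medians were -0.0042 and -0.015. By edgeR, a response past the threshold only in wild type is therefore not shown to differ between genotypes for any of the 9 genes. Of these, Pole alone passed by DESeq2 and by limma-voom with quality weights. Markers of other cells moved with this contrast too. By edgeR the difference passed the threshold above 0 for 1 of 8 plasma cell, 3 of 8 B cell and 4 of 7 T and NK cell markers. So it did for 1 of 7 monocyte markers. It passed below 0 for 1 of 10 stem and progenitor markers. Over each whole list, called or not, the median difference was 6.43, 5.92, 7.68, 3.25 and -0.52, in that order. The part of these markers in the contrast was not tested.

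Under PBS no difference between genotypes was detected in the replication genes. By edgeR 0 of 54 passed, with 0 at an unadjusted p under 0.05. Over all 16482 genes 0.0182% passed, and 541 genes had an unadjusted p under 0.05. DESeq2, weighted limma-voom and the TPM fit called 0 as well, against 0.152%, 0.0182% and 0% of all genes. Log2 fold changes of the mutant against wild type had a median of 0.11, against -0.02 over all genes. Of the 54 genes 43 had a value above 0, against 46.4% of all genes, and these signs were not tested. For Mcm2 the value was 0.10 ± 0.36 (SE; adjusted p = 1.00), for Orc1 -0.04 ± 0.39 (SE; adjusted p = 1.00) and for Pcna 0.07 ± 0.18 (SE; adjusted p = 1.00).

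After 5-FU the mutant libraries lay below the wild-type libraries for 20 of the 54 genes. By edgeR 0 of 54 passed, against 1.95% of all genes. An unadjusted p under 0.05 was found for 5 of 54 (Pole, Pola1, Rfc1, Orc6 and E2f8), against 3034 of all 16482 genes. DESeq2 called 2 (Pola1 and Pole, both lower), against 7.94% of all genes. Limma-voom with quality weights called 9 (3 higher and 6 lower), against 30.8%, and limma-trend on TPM called 0, against 0.959%. Pole was nearest to the threshold with -1.31 ± 0.33 (SE; adjusted p = 0.0509), and without wild-type 5-FU replicate 3 it passed together with Pola1, whose value was -1.09 ± 0.36 (SE; adjusted p = 0.134). For E2f8 the value was -0.98 ± 0.42 (SE; adjusted p = 0.235) and for Rfc1 -0.84 ± 0.36 (SE; adjusted p = 0.229).

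For 20 of 54 genes every mutant 5-FU library lay below every wild-type 5-FU library, and for 6 every one lay above. Over all genes these shares were 18% and 21.5%. The 20 held all 6 MCM genes, Orc1, Cdc6, Cdt1, Mcm10, E2f8, Pola2, Pold1, Pold3, Pole, Rfc1, Rpa1, Lig1, Chaf1a and Timeless. The 6 were Orc4, Orc6, Gins4, Pcna, Rfc3 and Rpa3, with Orc6 at 0.55 ± 0.24 (SE; adjusted p = 0.234). On the TPM scale all 54 genes, these 6 among them, had a log2 fold change below 0, and Orc6 was at -0.37, while the median of all genes moved from 0.07 to -0.59. On the CPM scale the median over all replication genes was -0.18, against 0.07 over all genes tested. By role the medians ran from -0.69 over the MCM ring to 0.16 over the sliding clamp and its loader. The median over the MCM ring was -0.12 with the immunoglobulin share as a covariate. It was 0.08 with the leading zero of the sample code as a covariate. All wild-type 5-FU codes lack that zero and all mutant 5-FU codes carry it, so the 2 genotypes after 5-FU and the writing of the code cannot be told apart without the PBS libraries. Markers of other cells moved with this contrast. Past the threshold and higher in the mutant were 6 of 8 plasma cell, 4 of 8 B cell and 4 of 7 T and NK cell markers. So were 1 of 7 monocyte, 1 of 7 erythroid and 0 of 7 granulocyte markers. Past it and lower were 2 of 10 stem and progenitor markers. Their part in it was not tested.

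Within the PBS libraries, where treatment was the same, levels of many replication genes ran against the share of immunoglobulin RNA. Over the 10 PBS libraries Pearson's r between the immunoglobulin share and log2 CPM was below -0.5 for 34 of 54 genes (63%), against 32.2% of all genes tested, and above 0.5 for 8 (14.8%), against 28.6%. The median r was -0.70 over the 54 and -0.08 over all genes. Same-numbered wild-type and mutant PBS libraries deviated together, so the 10 libraries were taken as 5 pairs and not as 10 independent samples. The labels do not give such a pairing. Within each genotype, PBS replicates 1 and 2 share the leading digits of their code, as do replicates 4 and 5. The permutation did not take that into account. The relations of Mcm2, Mcm5, Pcna, Cdc6, Ccne1 and E2f1 were therefore tested by an exact permutation of r over the 120 orders of the pairs (two-sided), added after seeing the data, with adjustment over the 6 genes. None of the 6 passed after adjustment. The smallest p that 120 orders can give is 0.00833, which leaves little room to pass after adjustment over 6 genes. The test therefore does not decide whether these relations hold.

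Mcm2 had r = -0.91 and Spearman's rho = -0.93 (exact permutation p = 0.0167 for r, adjusted 0.1). Without the 2 libraries farthest from the median share, PBS replicate 5 of each genotype, r was -0.94, and within the 6 PBS libraries whose sample code starts with a zero it was -0.91. The 4 others were too few for a value. Mcm5, Cdc6 and E2f1 had r = -0.82, -0.79 and -0.74 and rho = -0.89, -0.88 and -0.71, with exact permutation p of 0.0417, 0.0667 and 0.117 (adjusted 0.125, 0.133 and 0.175). Their r without the 2 farthest libraries was -0.91, -0.88 and -0.85, and within the 6 libraries with a leading zero -0.97, -0.92 and -0.82. Ccne1 had r = -0.28 and rho = -0.20 (exact permutation p = 0.492), with r = -0.55 without the 2 farthest libraries and -0.33 within the 6.

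Pcna had the opposite sign. Its r was 0.63 and its rho 0.71 (exact permutation p = 0.175, adjusted 0.21), and r was 0.57 without the 2 farthest libraries. Within the 6 libraries with a leading zero it was -0.02, so the relation of Pcna did not hold there. The other 7 genes with r above 0.5 were Gins1, Gins2, Gins4, Gmnn, Rfc4, Rpa3 and Tipin, with mean effective lengths of 570 to 1354 bases.

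**Figure D4:**
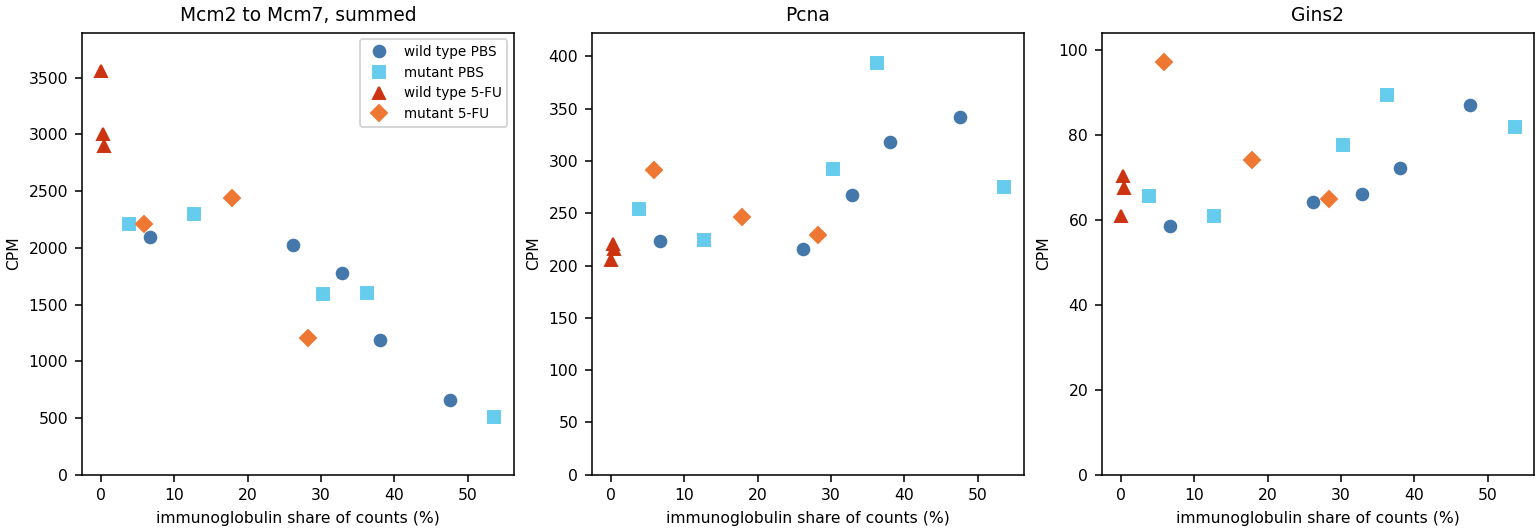
Summed level of Mcm2 to Mcm7, level of Pcna and level of Gins2 (vertical axes, CPM, from 0) against the immunoglobulin share of counts (horizontal axis, percent) in the 16 libraries, with symbols by group. The MCM sum is 2301 CPM in the highest and 508 CPM in the lowest PBS library. Over the PBS libraries Pcna and Gins2 have r of 0.63 and 0.80 with the share. In the mutant 5-FU group both are lowest in replicate 1, at 229.7 and 65.1 CPM, the library with the highest share of that group (28.3%).

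Transcript length went along with these differences. Across the 54 genes the log2 fold change in wild type correlated with log2 effective length at r = 0.69 (rho = 0.66), and over all genes tested at r = 0.37 (rho = 0.42). These genes share the same libraries and are not independent replicates. The 5 genes under 1000 bases had a median of 0.07, the 21 from 1000 to 2000 bases a median of 0.43 and the 28 over 2000 bases a median of 0.83. Over all genes tested the medians in these classes were -1.02, -0.23 and 0.25. The class medians of the replication genes lay above those of all genes, and Rpa3, Pcna and E2f2 lay below the median of all genes in their class. After removal of the trend with length, an alternative added after seeing the data, 17 of 54 were called in wild type, with all 9 genes among them, against 7.58% of all genes called higher.

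Between genotypes after 5-FU the relation had the opposite sign, r = -0.74 (rho = -0.74) across the 54 genes and r = -0.35 (rho = -0.48) over all genes. The medians from short to long were 0.31, 0.09 and -0.47, against 0.65, 0.24 and -0.24 over all genes. In the mutant response r was 0.17, and between genotypes under PBS it was -0.07. The part of RNA length or quality in the separate behaviour of small subunits such as Rpa3, Gins2 and Gmnn was not tested.

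**Figure D5:**
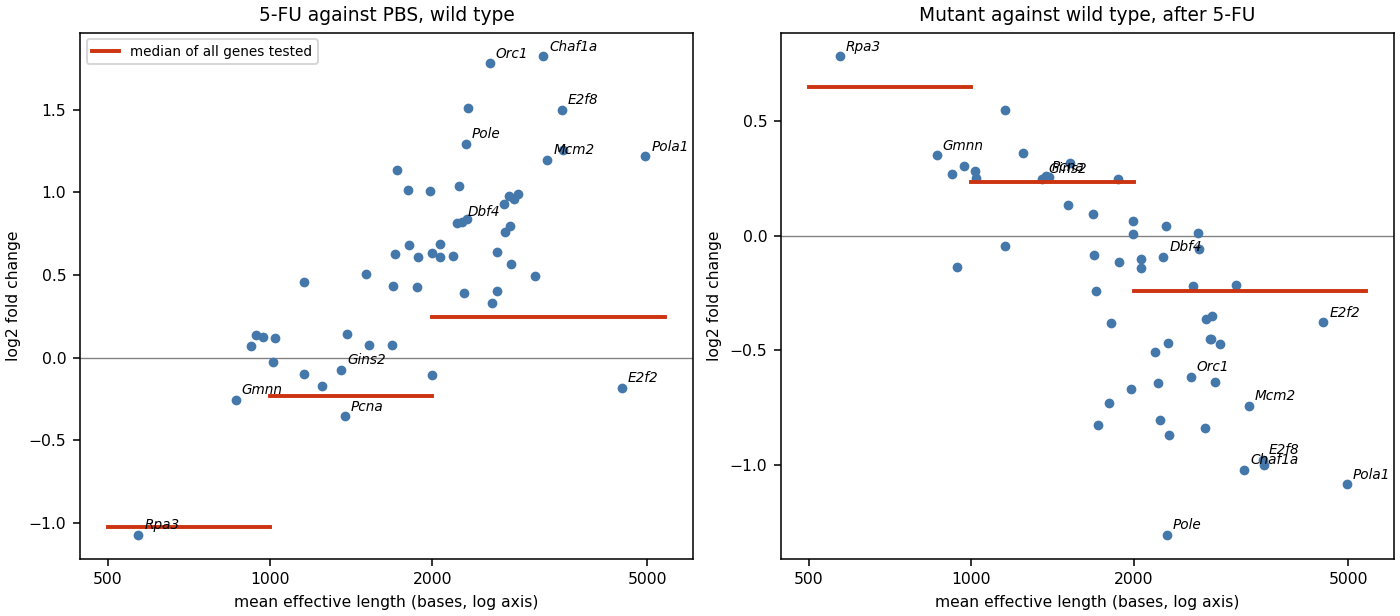
Log2 fold change (vertical axes) of the 54 replication genes against mean effective length in bases (horizontal axes, log scale) for 5-FU against PBS in wild type and for the mutant against wild type after 5-FU, with red lines at the median of all genes tested in each length class. Rpa3, the shortest, lies at -1.07 for 5-FU in wild type, and Pola1, the longest, lies at 1.22 there and at -1.09 for the mutant after 5-FU.

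Per transcript length, the genes covered a wide range of levels. In wild-type PBS libraries the median TPM (the share of transcripts, scaled to length) ran from 2.95 for E2f2, 3.05 for Orc1 and 3.56 for Clspn to 142 for Mcm6, 151 for Pcna and 256 for Rfc2. After 5-FU in wild type it ran from 6.32 for E2f2 and 13.3 for Clspn to 637 for Mcm6 and 694 for Rfc2. TPM is a share of the library, so these levels also move with the immunoglobulin RNA. Rfc2 counts were not whole in any library, and its place at the top is uncertain.

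Genes of neighbouring pathways moved in the same comparison, in which 5.55% of all genes tested rose and 9.31% fell, with a median of -0.11. Of 28 other replication factors 8 rose with 5-FU in wild type and 0 fell (median 0.84), led by the fork factor Wdhd1 (1.23 ± 0.28, adjusted p = 0.0118), the nuclease-helicase Dna2 (1.22 ± 0.30, adjusted p = 0.0166) and the checkpoint activator Topbp1 (1.05 ± 0.27, adjusted p = 0.0202). Of 16 genes of the E2F-Rb circuit 4 rose, led by E2f7 (1.70 ± 0.36, adjusted p = 0.00769), the partner of E2f8, the ubiquitin ligase subunit Skp2 (1.24 ± 0.28, adjusted p = 0.0111) and cyclin A2 (Ccna2, 1.01 ± 0.28, adjusted p = 0.0270). Of 12 genes of nucleotide supply 2 rose, both subunits of ribonucleotide reductase, Rrm2 (0.98 ± 0.28, adjusted p = 0.0299) and Rrm1 (1.34 ± 0.42, adjusted p = 0.0432), with Shmt1 (0.94 ± 0.32, adjusted p = 0.0549) next by p. Of 16 mitotic genes 10 rose (median 1.03), led by cyclin B2 (Ccnb2, 1.02 ± 0.20, adjusted p = 0.00522) and the motor genes Cenpe (1.10 ± 0.27, adjusted p = 0.0147) and Kif11 (1.38 ± 0.33, adjusted p = 0.0147). The medians of the E2F-Rb and nucleotide supply lists were 0.56 and 0.16. In each of these 4 lists 0 fell in wild type, and 0 passed in the mutant, between genotypes under PBS or after 5-FU, or for the interaction. Over all genes 2.2%, 0.0182%, 1.95% and 0.589% passed in these comparisons, in that order. The plasma cell, B cell and T cell markers that fell in wild type moved with all 4 lists, and their part was not tested.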

How the data were processed

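RNA of sorted LSK cells was sequenced in 16 libraries. Per the submitters' processing notes, RSEM 1.3.1 and FastQC 0.11.2 were used with mm10/GRCm38; the aligner and annotation release were not given in the sources used here. The authors' deposited tables hold, per the file headers, an RSEM expected count, TPM, FPKM, gene length and effective length for each gene. FPKM and gene length served only to check the tables. Libraries held 19.37 to 28.88 (in units of 1e6) counts, and the lowest count of a member in any library was 24.

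Expected counts were rounded. Genes passing filterByExpr of edgeR 4.0.16 (minimum count 10) numbered 16482. Libraries were scaled with TMM factors, and CPM uses these factors. The robust quasi-likelihood F test, with 1 mean per group and all 16 libraries, was run for 5 comparisons and adjusted by Benjamini-Hochberg over all genes (threshold 0.05). Each standard error is the size of the log2 fold change over the root of its F value. DESeq2 1.42.0, limma 3.58.1 (voom with quality weights, and trend on log2 of the deposited TPM plus 1), other scalings, covariates, the replicate block and left-out libraries were alternatives. The main script was tested on simulated data. Immunoglobulin genes are Igh, Igk and Igl segment and constant genes with Jchain. Gene positions are from GENCODE M21 (GRCm38).

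The members, gene lists and rules were chosen with earlier results of these data known. Values are given in every library for Mcm2, Mcm5, Pcna, Cdc6, Ccne1 and E2f1 and for the 8 called members with the smallest p. Other named members are the remaining called one, the 2 with the smallest p of each role in wild type after 5-FU and between genotypes after 5-FU, and some named after their values were seen because of shared reads, length or sign. From each related list the 3 genes with the smallest p are named. Same-numbered wild-type and mutant PBS libraries deviated together, with r over genes above 0.1 in every number (0.16 to 0.57), so the numbers were taken to pair the PBS groups. In the 5-FU groups r was 0.056, 0.115 and 0.020, which is not above 0.1 in every number. What the numbers stand for is not given in the labels.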

Additional observations from a re-analysis of the deposited data

Results flagged for a closer look

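Of 34 groups of 5 libraries tested for a sample far from the others, 2 stood out; chance alone flags about 1 group in 20. Rpa1 in mutant PBS replicate 3 was at 64.6 CPM, with the other 4 libraries of its group between 119.99 and 138 CPM. In the same library the mean over all 54 replication genes was 5.29 on the log2 CPM scale, with the other 4 between 5.95 and 6.19. That library also had the highest immunoglobulin share of all 16, 53.7%.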

How the results depend on the processing

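Counts of members past the threshold varied with the test. For 5-FU in wild type the 9 became 19 by DESeq2, 30 by limma-voom with quality weights and 46 by limma-trend on TPM (all genes called higher: 10.7%, 19.6% and 42.7%, against 5.55%). With the groups compared alone it became 15 (5.64% of all genes higher), and with the immunoglobulin share as a covariate 0 (0.746%). With the leading zero of the sample code as a covariate it became 1 (1.37%), and with the code's leading digits as a factor 0 (0.601%). The count ranged from 0 to 12 when 1 library was left out, with 0.85% to 7.95% of all genes called higher. It was 22 without both PBS libraries numbered 3 (9.18% of all genes) and 17 with the length trend removed (7.58%), both added after seeing the data. RLE scaling (12), upper quartile scaling (8), removal of immunoglobulin genes (12) and no filter (7) stayed within 1.5 times. The median of 0.61 was 1.96 on TPM and 0.084 with the immunoglobulin share as a covariate. The median of all genes, -0.11, was 1.01 on TPM and -0.24 with upper quartile scaling.

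For 5-FU in the mutant the 0 became 1 by DESeq2 and 4 by limma-voom (5.38% and 9.38% of all genes). The count was 2 with the leading zero as a covariate (5.38%) and 1 with the leading digits as a factor (4.99%). It was 0 to 1 with 1 library left out (0.913% to 2.47%) and 1 with the length trend removed (3.79%), and the median was 0.70 on TPM. For genotype after 5-FU the 0 became 1 with RLE scaling (1.95% of all genes), 1 without immunoglobulin genes (2.17%), 2 by DESeq2 (7.94%) and 9 by limma-voom (30.8%). The count was 2 with the groups alone (14.1%) and 0 to 2 with 1 library left out (0.0989% to 1.21%). It was 1 without both PBS libraries numbered 3 (6.62%) and 1 with the length trend removed (1.8%), and the median was -1.04 on TPM. For the interaction the 0 became 1 by DESeq2 and 1 by limma-voom, and the median of -0.35 was -1.29 on TPM, -0.0042 with the immunoglobulin share as a covariate and -0.010 with the leading zero as a covariate. For genotype under PBS the count was 0 in every alternative run.

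With the replicate number as a block, 34 members were called for 5-FU in wild type (32 higher and 2 lower, against 21.2% and 23.2% of all genes). The count was 2 in the mutant (6.15% of all genes), 2 for genotype after 5-FU (9.25%), 1 for the interaction (2.32%) and 0 for genotype under PBS (0.0182%). Only for genotype under PBS was r between same-numbered libraries above 0.1 in every number (0.16, 0.24, 0.49, 0.34 and 0.57); after 5-FU it was 0.056, 0.115 and 0.020 between genotypes, each wild-type library matching its own number best.

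On TPM Pcna in wild type turned from -0.35 to 1.14, where the median of all genes moved from -0.11 to 1.01, and Orc6 between genotypes after 5-FU from 0.55 to -0.37, where it moved from 0.07 to -0.59. E2f1 in wild type turned from 0.40 to -0.060 with the immunoglobulin share as a covariate and Pola1 from 1.22 to -0.043 with the leading digits as a factor; the cause was not tested. With the leading digits as a factor, genotype comparisons could not be estimated.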
